A study of Mus musculus with 24 samples.

Results

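The genes described here are 8 members of the stretch-responsive YAP and SRF network in mouse kidney, Ccn1 (Cyr61), Ccn2 (Ctgf), Ankrd1, Amotl2, Ajuba, Lats2, Srf and Yap1. They were chosen by name and not by a limit on measured values, though with earlier results of these data known, and are 8 of the 27971 genes tested on the arrays. The 8 genes were read by 10 probes, of which Srf and Lats2 have 2 each, and all 10 probes stood well above background on all 24 arrays. From 24 whole kidneys of male mice, labelled young adult and by the study's methods not long past weaning, total RNA had been hybridized to 1-colour Agilent microarrays, 1 kidney per array. The 6 control kidneys carried the genotype mgb+/+ and the 18 others mgb-/- (megabladder), a line that develops congenital obstruction with hydronephrosis, a swelling of the kidney with retained urine. Ultrasound grading by the amount of parenchyma preserved had placed 7 mgb-/- kidneys in a mild, 5 in a moderate and 6 in a severe group. All mice were age-matched, and no control kidney with obstruction and no mgb-/- kidney without hydronephrosis was part of the design, so genotype and hydronephrosis cannot be told apart. Whether any mouse gave both of its kidneys is not in the labels, and p-values therefore measure the spread between these kidneys. The question addressed is whether transcripts known to answer to mechanical stretch differed between control and mgb-/- kidneys and between the grades.

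YAP, the product of Yap1, is a transcriptional coactivator that enters the nucleus of stretched or spread cells and binds TEAD factors on DNA. In compact or crowded cells the LATS kinases of the Hippo pathway phosphorylate YAP and keep it in the cytoplasm. Ccn1 and Ccn2 encode secreted matricellular proteins and Ankrd1 encodes a nuclear ankyrin repeat protein first known from the heart, and these are among the transcripts most often read as a measure of YAP activity. Amotl2, Ajuba and Lats2 encode proteins that act on YAP or on the LATS kinases, and Amotl2 and Lats2 are also YAP targets, which gives the pathway a negative feedback. SRF is a transcription factor that binds the CArG box and works with 2 kinds of cofactor, the myocardin family, which responds to actin polymerization and drives cytoskeletal and contractile genes, and the ternary complex factors, which drive immediate early genes such as Fos and Egr1. The mgb mutation is known to disrupt Myocd, which encodes myocardin, the cofactor of SRF in smooth muscle.

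The arrays lay on 3 slides of 8, each with 2 control kidneys and with mgb-/- kidneys of all 3 grades. Between 55.1% and 70.7% of probes stood well above background on an array. The lowest share was that of severe kidney 4, whose array also had 660 outlier spots, where the others had 102 to 261. This kidney was kept in the fits unless stated otherwise. The median correlation of an array with the other arrays was 0.935 for severe kidney 4, 0.95 for severe kidney 5 and 0.957 for mild kidney 1, below those of the other 21 arrays. All 7 renal tubule markers examined were well above background on all 24 arrays. All 7 urothelial markers rose in the severe kidneys, with a summed level of 6.17 to 7.90 against 2.67 to 4.23 in controls. The part of urothelium in any result below was not tested, and in whole-kidney RNA fewer cells of a type and less RNA per cell cannot be told apart.

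Promoter sequences of 7 of the 8 genes were found in RefSeq (GRCm38.p6), all but Ccn2. Each covers 250 bases before to 50 bases after the annotated start. The core of the TEAD site, GGAATG on either strand, stood in 14.7% of the 32851 promoters of that table and in those of Ccn1, Ankrd1, Amotl2, Ajuba and Yap1 and in 1 of the 2 of Lats2. The CArG box was found in 1.63% of all promoters and, among these genes, in that of Srf, which held 2 and no TEAD core. Printed below, 5′ to 3′ on the gene's strand and with the matches in capitals, are the promoters of Ccn1 and Srf, which rose in mgb-/- kidneys, and of Ankrd1 and Amotl2, which stood highest in the same few kidneys. They lie at chr3:145649936-145650235, chr17:46556113-46556412 and chr19:36119795-36120094 on the minus strand, and at chr9:102717554-102717853 on the plus strand. The matches begin at position -103 from the start for Ccn1, at -82 and -62 for Srf, at -210 and -123 for Ankrd1 and at -65 for Amotl2. A match describes these letters and does not show that a factor binds there.
Ccn1: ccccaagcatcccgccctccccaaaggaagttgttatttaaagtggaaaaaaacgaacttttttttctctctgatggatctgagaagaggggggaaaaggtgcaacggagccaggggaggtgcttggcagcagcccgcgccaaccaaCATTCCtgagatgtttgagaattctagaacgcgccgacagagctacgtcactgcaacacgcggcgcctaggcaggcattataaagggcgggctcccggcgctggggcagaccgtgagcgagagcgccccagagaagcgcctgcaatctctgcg
Srf: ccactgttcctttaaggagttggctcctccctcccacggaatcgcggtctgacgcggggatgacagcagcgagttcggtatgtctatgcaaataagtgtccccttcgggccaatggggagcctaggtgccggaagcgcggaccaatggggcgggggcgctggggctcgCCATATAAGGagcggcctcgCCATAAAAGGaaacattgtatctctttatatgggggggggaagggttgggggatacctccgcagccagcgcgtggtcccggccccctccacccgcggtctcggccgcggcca
Ankrd1: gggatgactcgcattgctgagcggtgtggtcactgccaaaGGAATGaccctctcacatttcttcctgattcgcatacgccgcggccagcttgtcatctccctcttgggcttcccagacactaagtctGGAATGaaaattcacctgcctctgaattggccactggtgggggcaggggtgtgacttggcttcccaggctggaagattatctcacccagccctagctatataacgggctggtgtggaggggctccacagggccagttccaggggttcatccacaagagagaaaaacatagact
Amotl2: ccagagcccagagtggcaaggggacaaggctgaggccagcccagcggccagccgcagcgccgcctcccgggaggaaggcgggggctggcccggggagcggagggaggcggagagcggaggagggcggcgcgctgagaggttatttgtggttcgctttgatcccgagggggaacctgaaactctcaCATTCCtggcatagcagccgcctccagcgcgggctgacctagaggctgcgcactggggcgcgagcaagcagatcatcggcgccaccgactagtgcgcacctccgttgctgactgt

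Levels are given as log2 of the probe's signal over the 75th percentile of its array, so that 0 is the 75th percentile, and differences as log2 differences between group means. Levels of different genes come from different probes and are not compared. Ccn1, Ccn2 and Srf rose in mgb-/- kidneys compared with controls, by 3.04-fold, 1.84-fold and 1.58-fold, Srf on 1 of its 2 probes, and the other 5 genes did not pass the test (limma, adjusted p under 0.05 after Benjamini-Hochberg over all genes). These 3 of 8 stood beside a background of 13.3% of all genes tested that changed in this comparison and 5.34% that rose. The count includes Srf, which on its other probe differed by 0.04 and did not pass. The median log2 difference of the 8 genes was 0.44, against 0.01 for all genes. In mild against control kidneys 1 of the 8, Srf, rose (6.02% of all genes changed and 3.01% rose), in moderate against control none passed (1.2% of all genes), and in severe against control Ccn1, Ccn2 and Srf rose again (16.1% changed and 6.56% rose). At an unadjusted p under 0.05, 3, 3, 4 and 4 of the 8 passed in these comparisons, with backgrounds of 29%, 21.4%, 18.4% and 31.8%. All of these comparisons use the same 6 control kidneys. With severe kidneys 4 and 5 left out, an alternative chosen after seeing the data, 3 genes changed in all mgb-/- kidneys, 2 in mild ones, 1 in moderate ones and 1 in severe ones. With each array scaled by its median instead, Srf no longer passed over all mgb-/- kidneys (limma adjusted p = 0.103), and none of the 8 passed in mild or severe kidneys.

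**Figure D1:**
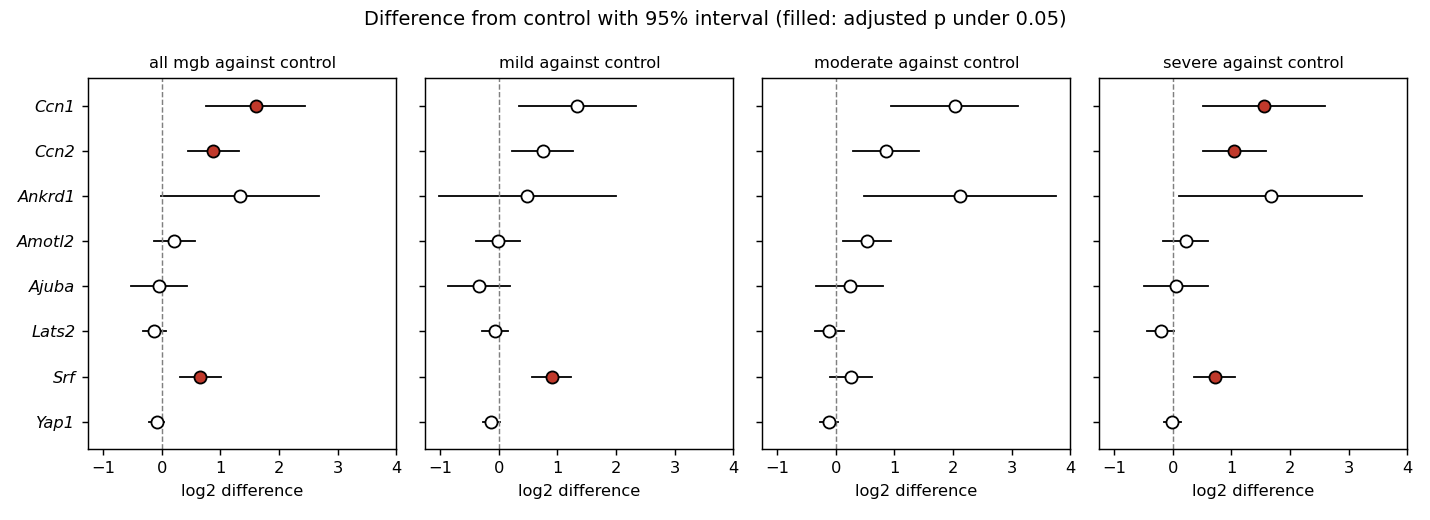
Log2 difference from the 6 control kidneys of each gene (points) with its 95% interval (lines), for all 18 mgb-/- kidneys and for each grade. Filled points passed an adjusted p under 0.05 in limma, and the intervals of Ankrd1 are the widest in each panel.

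**Figure D2:**
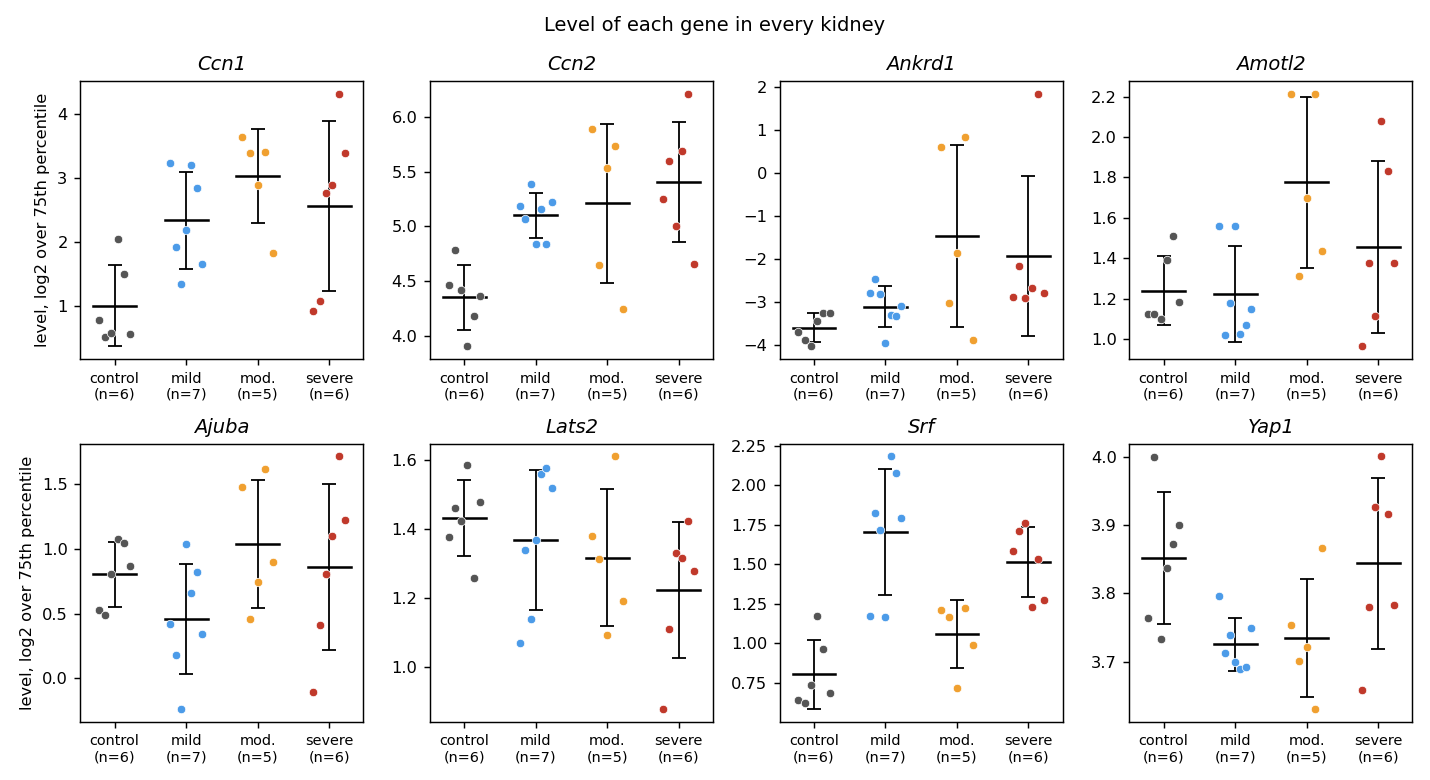
Level of each gene in every kidney, as log2 over the array's 75th percentile, with 1 point per kidney, the group mean (thick line) and its SD (error bar). Each panel has its own axis. Controls lie close together for Ankrd1, while 3 kidneys, 2 moderate and 1 severe, lie above 0.

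Ccn1 encodes a matrix-bound protein that is induced within minutes to hours by serum and by stretch. Its level was between 0.52 and 2.05 in control kidneys with a median of 0.69, and between 1.35 and 3.23 in mild kidneys with a median of 2.19. The moderate kidneys 1 to 5 were at 3.64, 3.40, 2.89, 3.41 and 1.82, and the severe kidneys lay between 0.92 and 4.32 with a median of 2.83. Among the 18 mgb-/- kidneys, 17 exceeded the mean of the controls and 12 the highest control, and the 6 kidneys within the control range included severe kidneys 1 and 2, at 0.92 and 1.08. The mean was 2.61 ± 0.96 (SD, n = 18) in mgb-/- kidneys and 1.01 ± 0.63 (SD, n = 6) in controls. The log2 difference was 1.60 with an SE of 0.41 and an adjusted p of 0.0137 in limma. Within the 3 slides the difference was 1.11, 1.89 and 1.80.

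By grade, the mean of Ccn1 was highest in moderate kidneys, followed by severe, mild and control kidneys, and each group overlapped its neighbour in this order. The log2 difference from control was 1.34 in mild kidneys (limma adjusted p = 0.102), 2.03 in moderate kidneys (0.0559) and 1.56 in severe kidneys (0.0384). Although it was the largest in size, the moderate difference missed the threshold, with a 95% interval of 0.94 to 3.12. The severe call rested on single kidneys: it was lost, at adjusted p-values between 0.0546 and 0.0960, when any 1 of control kidneys 1, 2, 3 and 6 or severe kidneys 3, 4, 5 and 6 was left out. On slide 1, which held 1 severe kidney, Ccn1 was lower there than in the controls of that slide (log2 difference -0.34), against 2.53 and 1.82 on the other slides. Without moderate kidney 5 the moderate difference passed, at 2.33 and an adjusted p of 0.0235, and without severe kidney 1, 5 or 6 it passed at adjusted p-values of 0.0464, 0.0249 and 0.0454.

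Ccn2 encodes connective tissue growth factor, a matricellular protein linked with fibrosis and a transcript induced by both YAP and TGFβ. In control kidneys it lay between 3.90 and 4.79 with a median of 4.39, in mild kidneys between 4.84 and 5.39 with a median of 5.16. The 5 moderate kidneys, 1 to 5, were at 5.89, 4.64, 5.53, 5.74 and 4.25, and severe kidneys lay between 4.66 and 6.21 with a median of 5.42. All 7 mild kidneys exceeded every control kidney, a separation seen in 9.17% of all genes in that comparison, whereas moderate kidneys 2 and 5 and severe kidney 6 fell within the control range. The mean level was 5.23 ± 0.49 (SD, n = 18) against 4.35 ± 0.30 (SD, n = 6), and the log2 difference of 0.88 had an SE of 0.21 and an adjusted p of 0.00990 in limma. Within slides it was 1.23, 0.57 and 0.83.

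The means of Ccn2 were ordered severe, moderate, mild and control. The severe difference from control was 1.05 (SE 0.26, limma adjusted p = 0.0127), the moderate difference 0.86 (0.106) and the mild difference 0.75 (0.0796). Mild, moderate and severe kidneys overlapped, and no difference between grades passed the test, the widest being 0.30 between severe and mild kidneys with a 95% interval that includes 0. Mild kidneys had an SD of 0.20, moderate kidneys one of 0.72 and severe kidneys one of 0.55. Leaving out moderate kidney 5, which had the lowest Ccn2 of all mgb-/- kidneys, raised the moderate difference to 1.10 with an adjusted p of 0.0240, and leaving out moderate kidney 2 gave 1.00 and 0.0490. The mild difference passed without moderate kidney 5 (adjusted p = 0.0458) or severe kidney 5 (0.0487).

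Ankrd1, a cardiac ankyrin repeat protein found in the nucleus and the sarcomere of muscle, was the most variable of the 8 genes. Control kidneys lay between -4.03 and -3.25 with a median of -3.57, and mild kidneys between -3.96 and -2.46 with a median of -3.09. In moderate kidneys 1 to 5 it was 0.61, -3.03, -1.86, 0.83 and -3.87. Severe kidneys lay between -2.90 and 1.84 with a median of -2.72, and kidney 5 stood far above the other 5. Relative to the control mean, Ankrd1 was 18.3-fold higher in moderate kidney 1, 21.4-fold in moderate kidney 4 and 43.1-fold in severe kidney 5. The SD across mgb-/- kidneys was 4.99 times that across controls.

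The log2 difference of Ankrd1 between all mgb-/- and control kidneys was 1.34 with an SE of 0.65 and did not pass the test (limma adjusted p = 0.177), although 14 of 18 mgb-/- kidneys were above the highest control. All 6 severe kidneys exceeded all 6 controls, a separation found in 5.06% of all genes, with a difference of 1.67 (SE 0.75, adjusted p = 0.132). The moderate difference was 2.13 (SE 0.79, adjusted p = 0.157) and the mild difference 0.49 (SE 0.73, adjusted p = 0.781). Without severe kidney 5 the severe difference was 0.92. Without moderate kidney 4 the moderate difference was 1.55, in a fit that still held moderate kidney 1 at a level of 0.61. The moderate difference passed without moderate kidney 5 (2.73, adjusted p = 0.0489) and without severe kidney 5 (adjusted p = 0.0494). The moderate mean was the highest, followed by severe, mild and control, and neighbours in this order overlapped.

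Amotl2 encodes an angiomotin, a junctional protein that holds YAP outside the nucleus. Its level was between 1.10 and 1.51 in control kidneys with a median of 1.16, and between 1.02 and 1.56 in mild kidneys with a median of 1.15. Moderate kidneys 1 to 5 were at 2.21, 1.31, 1.70, 2.21 and 1.44, and severe kidneys lay between 0.96 and 2.08 with a median of 1.38. Mild and control kidneys covered nearly the same range, and moderate kidneys 1, 3 and 4 stood above all of them. The log2 difference from control was -0.02 in mild, 0.54 in moderate (SE 0.20, limma adjusted p = 0.151) and 0.22 in severe kidneys (adjusted p = 0.448). Over all mgb-/- kidneys it was 0.22 with a 95% interval of -0.14 to 0.57. Moderate exceeded mild kidneys by 0.55 (SE 0.19, unadjusted p = 0.00798 in limma), which did not pass after adjustment (0.555).

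Ajuba encodes a LIM-domain protein of cell junctions that binds and restrains LATS kinases under tension. Levels ran from 0.49 to 1.08 in control kidneys with a median of 0.84, and from -0.24 to 1.04 in mild kidneys with a median of 0.42. In order, moderate kidneys 1 to 5 were at 1.48, 0.46, 0.74, 1.62 and 0.90, and severe kidneys ranged from -0.10 to 1.72 with a median of 0.96. The mgb-/- kidneys spread to both sides of the controls, with 5 above the highest and 7 below the lowest control. The difference over all mgb-/- kidneys was -0.05 with a 95% interval of -0.52 to 0.43 (limma adjusted p = 0.916). By grade it was -0.34 (mild), 0.24 (moderate) and 0.06 (severe), none of which passed.

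Lats2 encodes the kinase that phosphorylates YAP and is itself a YAP target. Levels were 1.26 to 1.59 in control kidneys with a median of 1.44, and 1.07 to 1.58 in mild kidneys with a median of 1.37. Moderate kidneys 1 to 5 were at 1.38, 1.31, 1.09, 1.61 and 1.19, and severe kidneys lay between 0.88 and 1.42 with a median of 1.30. All groups overlapped, and the means were ordered control, mild, moderate and severe. The difference from control was -0.13 over all mgb-/- kidneys, with a 95% interval of -0.32 to 0.07, and -0.21 in severe kidneys (SE 0.11, limma adjusted p = 0.214). The other Lats2 probe, which reads a different transcript accession, gave 0.09 over all mgb-/- kidneys and 0.15 in severe kidneys, and both probes had a Pearson r of -0.18 over the 24 kidneys, which share arrays and scaling.

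Srf encodes the transcription factor itself, whose promoter carries CArG boxes of its own (printed above). On the probe used, levels were 0.62 to 1.17 in control kidneys with a median of 0.71, and 1.17 to 2.18 in mild kidneys with a median of 1.79. For moderate kidneys 1 to 5 the levels were 1.21, 1.17, 0.71, 1.22 and 0.99, and severe kidneys lay between 1.23 and 1.76 with a median of 1.56. All 6 severe kidneys were above every control, a separation found in 5.06% of all genes in that comparison. Of the mild kidneys 5 of 7 were above every control, and of the moderate ones 2 of 5. The log2 difference from control was 0.90 in mild kidneys (SE 0.16, limma adjusted p = 0.00284), 0.71 in severe kidneys (SE 0.17, 0.00938) and 0.26 in moderate kidneys (SE 0.17, 0.441). Over all mgb-/- kidneys it was 0.66 (SE 0.17, adjusted p = 0.0140), and within slides 0.47, 0.78 and 0.72.

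The rise of Srf rested on 1 of its 2 probes, both of which are assigned to the same transcript accession. On the other probe control kidneys had a level of 0.94 ± 0.15 (SD, n = 6) and mild kidneys one of 1.08 ± 0.24 (SD, n = 7). Moderate kidneys were at 0.87 ± 0.23 (SD, n = 5) and severe kidneys at 0.97 ± 0.25 (SD, n = 6). With that probe the log2 difference over all mgb-/- kidneys was 0.04 with an adjusted p of 0.835 in limma, 0.14 in mild and 0.03 in severe kidneys. The probe used was the one with the higher mean over all 24 arrays, yet in the control kidneys its mean of 0.80 was the lower, so the rule chose the probe that was higher in mgb-/- kidneys. Over the 24 kidneys the probes correlated with a Pearson r of 0.51, points that share arrays and scaling. With the mean of both probes the difference was 0.35 and the adjusted p 0.0661.

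**Figure D3:**
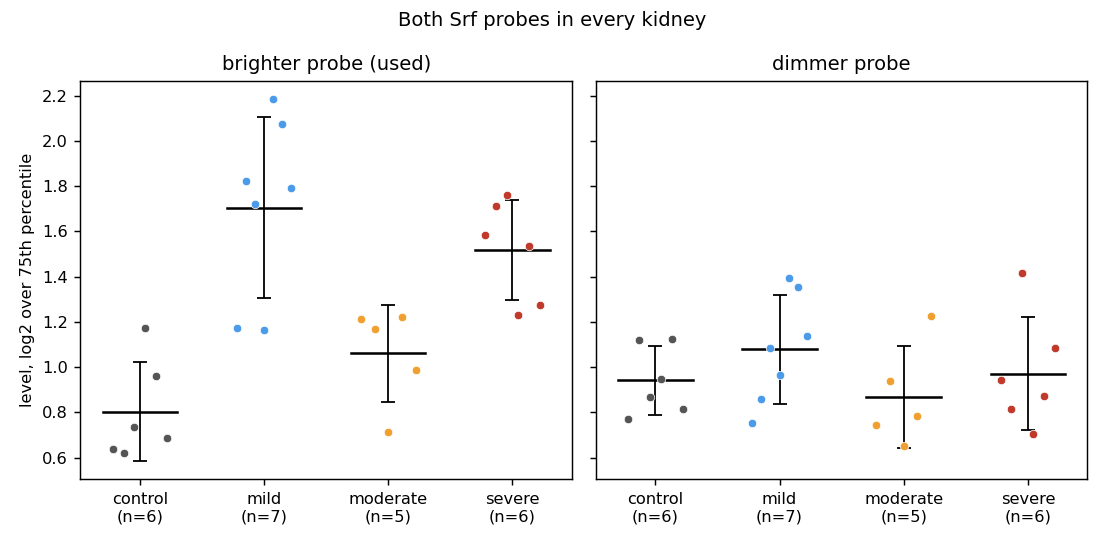
Level of Srf in every kidney on each of its 2 probes, as log2 over the array's 75th percentile, with group means (thick lines) and SD (error bars). On the brighter probe mild and severe kidneys stand above most controls, and on the dimmer probe all 4 groups overlap.

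Yap1 itself had the narrowest range of the 8 genes. Levels were 3.73 to 4.00 in control kidneys with a median of 3.85, and 3.69 to 3.80 in mild kidneys with a median of 3.71. Moderate kidneys 1 to 5 were at 3.75, 3.70, 3.72, 3.63 and 3.87, and severe kidneys lay between 3.66 and 4.00 with a median of 3.85. All groups overlapped, and 8 of 18 mgb-/- kidneys were below the lowest control. The difference over all mgb-/- kidneys was -0.08 with a 95% interval of -0.21 to 0.04 (limma adjusted p = 0.399), in severe kidneys -0.01, and its sign turned under quantile normalization (0.04) and in the authors' normalized table (0.06). These are differences of transcript, and the arrays do not measure where the YAP protein lies.

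Between the grades none of the 8 genes passed the test, in a background of 0% of genes that changed between moderate and mild, 0.586% between severe and mild and 0.00715% between severe and moderate kidneys. At an unadjusted p under 0.05 in limma, 4 of 8 genes passed between moderate and mild kidneys (background 6.68%), none between severe and mild (11.1%) and 1 between severe and moderate (10.4%). Those 4 were Srf, lower in moderate than in mild kidneys by a log2 difference of -0.64 (SE 0.17, limma adjusted p = 0.499, ranked 51 of all genes by p), and Amotl2, Ajuba and Ankrd1, higher by 0.55, 0.58 and 1.64. Srf thus ran against the other 3 in that comparison. Severe kidneys exceeded moderate kidneys in Srf by 0.45 (SE 0.17, adjusted p = 0.383), and their ranges did not overlap, a separation found in 0.551% of genes in that comparison. Both Srf differences between grades hold for the probe used. On the other Srf probe they were -0.21 (moderate against mild) and 0.10 (severe against moderate), and there moderate kidneys at 0.65 to 1.23 overlapped severe kidneys at 0.70 to 1.41.

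Read kidney by kidney, the same 3 kidneys carried the highest levels of several members. Severe kidney 5, moderate kidney 1 and moderate kidney 4 held ranks 1, 2 and 3 of the 24 kidneys in both Ccn1 and Ccn2. In Ankrd1 and in Ajuba they also held the first 3 places, with severe kidney 5 ahead of moderate kidneys 4 and 1. In Amotl2 moderate kidney 4 was first, moderate kidney 1 second and severe kidney 5 at rank 4. They were not high in Srf, where they stood at ranks 9, 13 and 12. Moderate kidney 5, in contrast, was below the control mean in Ccn2 and Ankrd1. Moderate kidneys 1 and 4 lay on slide 1, and severe kidney 5 on slide 2. Within slides 1, 2 and 3, moderate against control, Ankrd1 differed by 4.29, 0.12 and 1.78 and Ccn2 by 1.63, -0.04 and 1.14. Amotl2 differed by 0.96, 0.06 and 0.56, Ajuba by 0.75, -0.09 and -0.10 and Ccn1 by 2.10, 1.60 and 2.31. Slide 3 held 1 moderate kidney. Moderate kidneys 1 and 4 and severe kidney 5 also had the highest summed levels of the smooth muscle markers, 6.84, 6.46 and 6.64 in the order severe 5, moderate 1 and moderate 4, where controls lay between 3.85 and 4.82, mild kidneys between 4.68 and 5.67, moderate kidneys between 4.00 and 6.64 and severe kidneys between 5.17 and 6.84. Their summed fibroblast markers were 8.33, 7.20 and 7.78, within ranges of 6.25 to 6.68 in controls, 6.37 to 7.06 in mild, 5.41 to 7.78 in moderate and 6.22 to 8.33 in severe kidneys. Their summed renal tubule markers held ranks 24, 23 and 20 of 24, and their podocyte markers ranks 23, 19 and 20. Other lists did not set all 3 apart, with ranks 2, 9 and 8 for urothelial, 15, 13 and 23 for leukocyte and 9, 19 and 6 for endothelial markers. The same 3 kidneys held ranks 1, 3 and 2 in the summed skeletal muscle markers, at -1.21, -1.99 and -1.54 against -4.74 to -3.07 in controls, -3.25 to -2.51 in mild, -3.62 to -1.54 in moderate and -2.72 to -1.21 in severe kidneys. That sum rests on 2 of 5 listed markers, Acta1, which rose over all mgb-/- kidneys by 1.24 (limma adjusted p = 0.0231, lost without control kidney 2 or 3), and Tnnt3 (0.11), while the defining markers Ckm and Myh4 were well above background on 0 arrays and Mylpf on 2. Of the 5 smooth muscle markers 2 rose over all mgb-/- kidneys, and of the 6 fibroblast markers 1, Dcn, rose (in 12 of 24 fits with 1 kidney left out), and each of these markers was detected above background on 23 or 24 arrays. The part of these cell types in the levels of Ccn1, Ccn2, Ankrd1, Amotl2 and Ajuba was not tested. Moderate kidney 1 also carried a summed adrenal cortex marker level of 5.78, where controls lay between -4.56 and -3.27. Moderate kidney 4 and severe kidney 5 were at -4.55 and -3.35. The adrenal cortex sum was highest in mild kidney 4, at 6.06, and mild kidneys ranged down to -4.62 with a median of -0.99. The markers in that sum were well above background on 7 to 23 arrays.

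**Figure D4:**
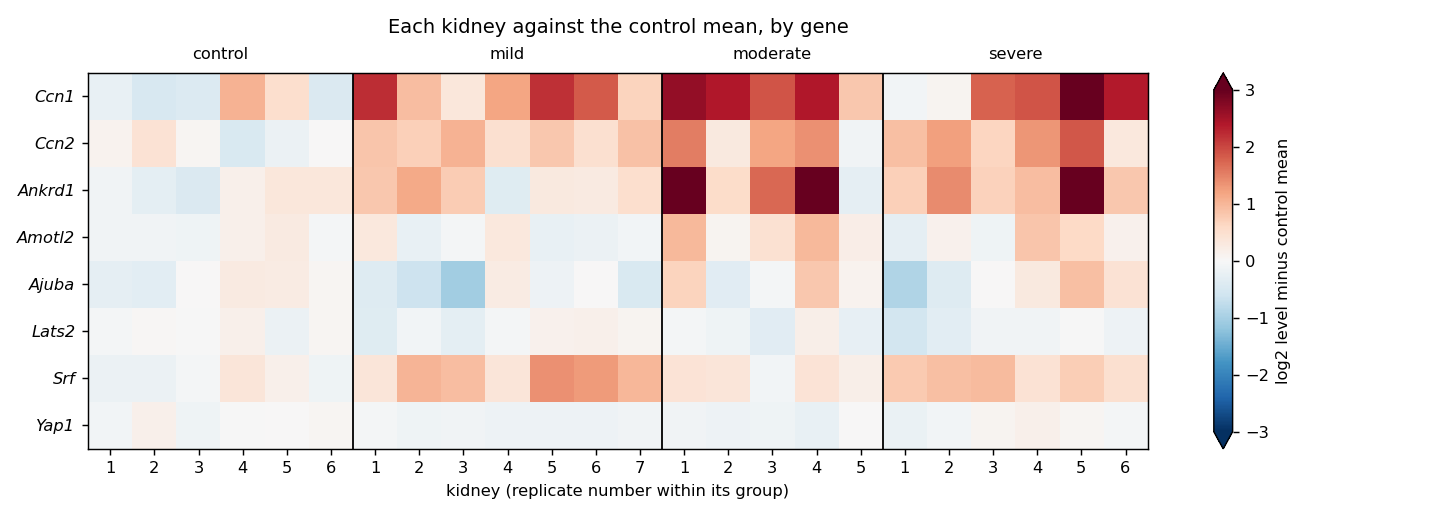
Log2 level of each gene in every kidney minus the mean of the 6 controls, with kidneys in columns by group and replicate number and genes in rows. The colour scale ends at -3 and 3, and moderate kidneys 1 and 4 and severe kidney 5 are beyond it in Ankrd1.

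The other genes of these pathways were read from lists written for this purpose, in all mgb-/- against control kidneys. Each count stands beside the 13.3% of all genes that changed in this comparison and the 5.34% that rose. Among 13 Hippo kinases and scaffolds 1 rose, Taok1, a kinase upstream of LATS, by a log2 difference of 0.27, a share near that of all genes, and the list's median was 0.15. The call of Taok1 was lost without control kidney 3, 4 or 6. Lats1, the paralogue of Lats2, differed by 0.31 (adjusted p = 0.175) and Nf2, the scaffold merlin, by -0.39 (adjusted p = 0.202, limma). In severe kidneys the Nf2 difference was -0.68 with an adjusted p of 0.0464, a call that held in 4 of the 24 fits that left out 1 kidney. Without severe kidney 4, whose array stood apart, it was -0.41 (adjusted p = 0.0600). Of the 6 other YAP-binding and LATS-binding proteins, Wtip, a relative of Ajuba, rose by 0.30, and Amot, a relative of Amotl2, fell by 0.30 (adjusted p-values 0.0457 and 0.0491), calls that held in 6 and 5 of those 24 fits. Among 7 genes of the YAP paralogue, the TEAD factors and vestigial-like cofactors of TEAD 1 rose, Tead3 (0.44, adjusted p = 0.0266, lost without control kidney 1, 3 or 4). The vestigial-like genes were well above background on 15 and 5 arrays. Wwtr1, which encodes the YAP paralogue TAZ, differed by -0.02, Tead1 by -0.10, Tead2 by 0.09 and Tead4 by 0.17, none of which passed. Without severe kidney 4 the sign of Tead1 turned (0.03), and with any 1 kidney left out Wwtr1 ran from -0.10 to 0.02, Tead2 from 0.01 to 0.15 and Tead4 from 0.11 to 0.23. The grades of Wwtr1, read after its values were seen, went to both sides of the control mean of 1.58. Severe kidneys averaged 1.36, whereas the mild mean was 1.68 and the moderate mean 1.65. Every severe kidney (1.22 to 1.52) lay below every mild kidney (1.56 to 1.87), a separation found in 0.901% of genes. The severe kidneys lay within the control range of 1.19 to 1.78, and none of the 7 genes passed between severe and mild kidneys.

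Of 16 further YAP and TEAD target genes 4 rose, 1 fell and 11 did not pass, with a median of 0.30. Among the 16, 1 is also counted in the list of YAP-binding and LATS-binding proteins above. Myof, a membrane repair protein, rose by 1.59 (SE 0.40, limma adjusted p = 0.0127), the receptor tyrosine kinase gene Axl by 0.72 and Tgfb2, a TGFβ ligand, by 0.70. Nt5e, an ectonucleotidase, fell by 0.75 (adjusted p = 0.0364). With 1 kidney left out the number that rose ran from 1, without control kidney 1, 3, 4 or 6, to 6. The rise of Myof held in all 24 such fits, that of Tgfb2 in 8, that of Axl in 5 and the fall of Nt5e in 15. Myof was well above background on 14 of the 24 arrays, so part of its difference compares values near background. In severe kidneys 4 of the 16 rose (2 without severe kidneys 4 and 5), beside 6.56% of all genes, with Myof at 1.96 and Tgfb2 at 1.09. In moderate kidneys none passed limma's test after adjustment (5 at an unadjusted p under 0.05, where 18.4% of all genes did). Of the 3 other CCN genes tested, Ccn3 rose by 1.21 (adjusted p = 0.0267, lost without control kidney 1, 2, 3 or 6), Ccn5 differed by 1.10 (0.119) and Ccn4 by 0.31 (0.428). Ccn3 was well above background on 13 arrays only. Ccn5 rose in severe kidneys, by 1.79 (1.26 and an adjusted p of 0.0745 without severe kidneys 4 and 5). Neither of the relatives of Ankrd1, Ankrd2 (0.25) and Ankrd23 (0.10), passed, and Ankrd23 was at 0.33 without severe kidney 4.

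On the SRF side, of 8 immediate early genes 7 rose over all mgb-/- kidneys, with a list median of 2.72: Egr2 by 4.15, Fos by 3.94, Egr1 by 3.64 and Nr4a1 by 3.20 on the log2 scale (limma adjusted p from 2.61e-06 to 0.000142), with all 18 mgb-/- kidneys above the mean of the controls in each. Of these 8 genes 6 rose in mild kidneys, 5 in moderate ones (2 without moderate kidney 1) and 7 in severe ones. The shares of all genes that rose in these grades were 3.01%, 0.647% and 6.56%. The summed level of the 8 genes lay between 4.75 and 5.03 in control, 5.86 and 7.03 in mild, 5.45 and 6.24 in moderate and 5.09 and 6.98 in severe kidneys. Every mgb-/- kidney was thus above every control, the closest being severe kidney 4 at 5.09 and control kidney 2 at 5.03. Among single genes, 0.837% separated all mgb-/- from all control kidneys. Of 9 smooth muscle targets 2 rose, Tagln by 1.28 and Acta2 by 1.20 (limma adjusted p-values 0.00842 and 0.0223). The rise of Tagln held with any 1 kidney left out, and that of Acta2 was lost without control kidney 1, 2 or 3. Of 14 cytoskeletal targets none passed (5 at an unadjusted p under 0.05, where 29% of all genes did). In severe kidneys 4 smooth muscle targets (Tagln, Acta2, Cnn1 and Myl9) and 4 cytoskeletal targets (Pdlim7, Flna, Cnn2 and Myh9) rose, beside 6.56% of all genes. Without severe kidneys 4 and 5 these counts were 2 and 0, and the cytoskeletal count was also 0 without control kidney 1 or 3 or severe kidney 2 or 5. Tagln, Acta2 and Cnn1 are also in the list of smooth muscle markers.

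Among the 6 SRF cofactors, Elk4, a ternary complex factor, rose by 0.41 (SE 0.09, limma adjusted p = 0.00559) and Mrtfb, a myocardin-related factor, by 0.36 (SE 0.09, adjusted p = 0.0122), and in both all 18 mgb-/- kidneys exceeded the mean of the controls. Mrtfa differed by 0.14 (adjusted p = 0.790), a value that was 0.30 (0.118) without severe kidney 4 and 0.07 without control kidney 4. Myocd was well above background on all 24 arrays, with a level of -4.07 ± 0.90 (SD, n = 6) in controls. Mild kidneys were at -4.01 ± 0.53 (SD, n = 7), moderate kidneys at -3.15 ± 0.58 (SD, n = 5) and severe kidneys at -3.13 ± 0.55 (SD, n = 6). Its difference of 0.59 over all mgb-/- kidneys did not pass (adjusted p = 0.248). Without control kidney 6 it was 0.95 and passed, at an adjusted p of 0.0490 in limma. Where the Myocd probe lies relative to the mutation is not given in the sources used here, so its level is no check of the genotype.

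**Figure D5:**
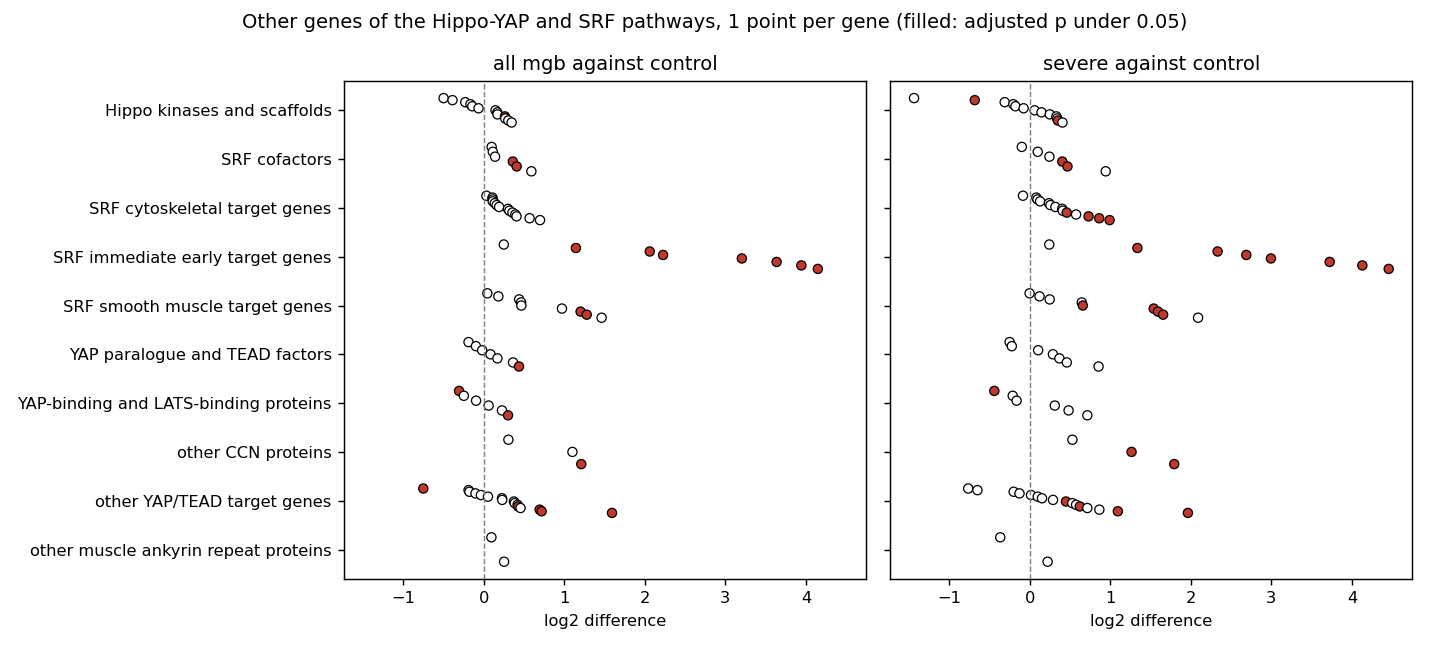
Log2 difference of the other genes of the Hippo-YAP and SRF pathways, 1 point per gene, for all 18 mgb-/- and for the 6 severe kidneys against the 6 controls. Filled points passed an adjusted p under 0.05 in limma. The immediate early genes reach log2 differences above 4, and the Hippo kinases and scaffolds run from -0.50 to 0.35 in all mgb-/- and from -1.43 to 0.41 in severe kidneys.

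The named genes whose levels followed each member most closely over the 24 kidneys are given as a description, since all points share arrays, scaling and the difference between groups. Among 16282 named genes, Ccn1 was most like Junb, Fos and Rgs1 (Pearson r = 0.88, 0.88 and 0.86), of which Junb and Fos are immediate early genes from the SRF list above. Ccn2 was most like Hrct1, Cd24a and Ptbp3 (0.95, 0.94 and 0.94). Ankrd1 was most like Anxa3, Itgb3 and Tpm1 (0.95 each), where Itgb3 encodes an integrin subunit and Tpm1 a tropomyosin of the cytoskeletal list. Amotl2 was most like Lad1, Ctsd and Hesx1 (0.87, 0.83 and 0.82) and Ajuba most like H2-Q2, H2-K2 and Id3 (0.85, 0.85 and 0.84). Lats2 followed Haus5, F8 and Cenpk (0.84, 0.83 and 0.81), and Yap1 followed Zmat3, Grk2 and Tardbp (0.81, 0.75 and 0.74). Srf on the probe used was most like Vps37b, Midn and Zbtb2 (0.91, 0.89 and 0.88). Within the 18 mgb-/- kidneys alone these 24 coefficients lay between 0.75 and 0.96, and within the 6 controls between -0.27 and 0.91, with a median of 0.64.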

How the data were processed

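Levels were measured in 24 kidneys on 1-colour Agilent arrays and grouped by the genotype and hydronephrosis degree in the labels. The authors deposited the output of Agilent Feature Extraction 10.10 for each array, whose processed signal is an intensity with background subtracted and no normalization between arrays. They also deposited a table of intensities normalized between arrays by a method not given in the sources used here, which served as an alternative. Processed signals were divided by the 75th percentile of their array, which lay between 496 and 968 intensity units, and converted to log2. Outlier spots were dropped, no spot was saturated, and 38848 of 55681 probes, detected above background on 5 or more arrays, entered the fits. Of all probes 26762 were named through RefSeq accessions (GRCm38.p6) and 28919 kept their accession. The array annotation uses another build, so no probe coordinates are given. Where a gene had several probes, the brightest on average stood for it. All mgb-/- kidneys were set against controls in a fit of 2 groups and the grades in a fit of 4 groups (limma 3.58.1, R 4.3.3), and Benjamini-Hochberg adjustment ran over 27971 genes. Summed levels are log2 of the sum of a list's scaled signals. The number of arrays limits the precision. Members, lists and tests were chosen with earlier results of these data known. The text names all 8 members, up to 4 changed genes per list with the largest differences, 10 regulators whatever their values (Myocd, Mrtfa, Mrtfb, Wwtr1, Tead1 to Tead4, Lats1 and Nf2) and the 3 genes most like each member. Other genes of the lists (Ccn4, Ccn5, Ankrd2, Ankrd23, Pdlim7, Flna, Cnn2, Myh9, Cnn1 and Myl9) fall outside that rule and were chosen after their values were seen. The fit was tested on simulated data. Alternatives covered the scaling, background correction, filter, probe choice, slide and replicate blocks, array weights, threshold and each kidney left out. For the other genes of the pathway lists, leaving out kidneys was chosen after seeing the data.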

Additional observations from a re-analysis of the deposited data

Results flagged for a closer look

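Ankrd1 in severe kidney 5, at a log2 level of 1.84, stood apart from the other 5 severe kidneys, the next of which was at -2.17. The gap was 0.847 of the group's whole range, above the 95% critical value of Dixon's test for 6 samples. It was the 1 such kidney among 32 groups of 5 to 7 kidneys examined (8 genes in 4 groups), and this rule flags about 1 in 20 groups by chance. Without that kidney the severe difference from control was 0.92 with an adjusted p of 0.310 in limma.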

How the results depend on the processing

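Over 37 alternatives each, the rise of Ccn1 over all mgb-/- kidneys passed in 37, that of Ccn2 in 36 and that of Srf in 34. These 37 leave out the dimmer probe, an alternative chosen after seeing the data, with which the Srf difference was 0.043 and did not pass. Scaling by the array median lowered the median of all genes by 0.15 (all mgb-/- against control) and the share of rises among changed genes from 40% to 17.7%. In severe kidneys that share was 40.7%, 22.5% by the median, 51.3% by quantile and 50.1% in the authors' table. In mild kidneys it went from 50% to 28.8% by the median, and in moderate kidneys from 53.9% to 30.8% by the median, 43.3% by quantile and 37.4% in the authors' table. The number of members changed against control went to 0 in mild and 0 in severe kidneys with the median, to 1 in moderate kidneys with a filter on all 24 arrays, to 3 in mild, 4 in moderate and, against mild, 1 in moderate kidneys with array weights, to 2 and 1 in mild and moderate kidneys at an adjusted p under 0.1, to 1 in all mgb-/- and 0 in mild kidneys with a 2-fold limit, and to 3 and 1 in mild and moderate kidneys fitted alone. With the dimmer probes it was 0 in mild kidneys, and without severe kidneys 4 and 5 it was 2, 1 and 1 in mild, moderate and severe kidneys. Leaving out 1 kidney gave 1 to 2 in mild, 0 to 3 in moderate and 2 to 3 in severe kidneys. The severe rise of Ccn1 missed the threshold in 13 of 37 alternatives. Replicate numbers did not pair the kidneys (33 same-numbered pairs, r from -0.55 to 0.65, and 6 of 24 kidneys correlated best with their own number). With the replicate block the counts were 3, 1, 0 and 2 for all, mild, moderate and severe kidneys, Ccn1 in severe kidneys being lost (adjusted p = 0.0629). With the slide as a block they were 3, 1, 0 and 3.

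None of the reversed differences had passed the test. Against control, Yap1 was 0.045 in all mgb-/- and 0.18 in severe kidneys and Amotl2 0.012 in mild kidneys by quantile. In the authors' table Ajuba was 0.0095 and Yap1 0.060 in all mgb-/- kidneys, Amotl2 0.014 in mild, and Yap1 0.0083 in moderate and 0.20 in severe kidneys. Ajuba in severe kidneys was -0.12 by the median, -0.16 with array weights and -0.22 without severe kidneys 4 and 5. With weights Yap1 in severe kidneys was 0.0060, Ccn1 in severe against mild -0.32 and Ccn2 in severe against moderate kidneys -0.076. With the mean of a gene's probes Lats2 was 0.013 in mild against control and 0.0096 in severe against moderate kidneys. With the dimmer probe Lats2 was 0.094, 0.089, 0.035 and 0.15 in all, mild, moderate and severe kidneys, 0.060 in severe against mild and 0.11 in severe against moderate kidneys, and Srf -0.074 in moderate kidneys. Without severe kidneys 4 and 5 Amotl2 was -0.031 in severe kidneys and -0.016 against mild, Ccn1 -0.30 against mild and Ccn2 -0.081 against moderate kidneys. Leaving out 1 kidney gave Ajuba -0.11 to 0.0094 in all and -0.11 to 0.25 in severe, Amotl2 -0.072 to 0.039 in mild and Yap1 -0.038 to 0.030 in severe kidneys against control. It gave Ccn2 -0.062 to 0.35, Lats2 -0.12 to 0.0061 and Yap1 -0.024 to 0.035 in moderate against mild, Ccn1 -0.13 to 0.55 in severe against mild, and Ajuba -0.35 to 0.013, Ankrd1 -1.21 to 0.12 and Ccn2 -0.048 to 0.36 in severe against moderate kidneys. The causes were not tested.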
